A study of Mus musculus with 27 samples.

Results

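The Fc gamma receptor family was examined in monocytes, macrophages and type 1 conventional dendritic cells (cDC1s) sorted from the inflamed mouse colon. Members were taken by gene symbol, as every probe of the array named *Fcgr1*, *Fcgr2b*, *Fcgr3*, *Fcgr4*, *Fcer1g* or *Fcgrt*, which gave 6 genes of the 30869 symbols and 11 probes of the 45281 on the array. *Fcgr2b* had 5 probes, *Fcgrt* had 2 and every other member had 1. All 6 genes passed the filter on dim probes in every comparison. Where a gene had several probes, values are those of its brightest probe by mean, and the others are described separately.

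Transcripts were measured on single-colour Illumina bead arrays, on which the brightness of a probe's beads reads the abundance of its transcript. The mice were WT or *Mbd2*-/-, which lack methyl-CpG-binding domain protein 2 in every tissue, on a C57BL/6 background and aged 8 to 22 weeks, matched for age and sex, with littermates used and co-housed where possible. Every colon sample of both genotypes came from mice given 2% dextran sodium sulfate (DSS) in their drinking water, and the methods state 6 days of it, so that no sample from an untreated colon was compared. All 3 cell types were sorted from CD45+ cells without Ly6G, a neutrophil marker, or Siglec-F, an eosinophil marker. Monocytes (CD11b+Ly6C+) were read on 5 arrays from WT and 5 from *Mbd2*-/- mice, with 5 and 5 of macrophages (CD11b+Ly6C-MHC-II+F4/80+) and 2 and 3 of cDC1s (CD11b-CD11c+CD103+). Each array was a replicate made of 1 to 5 mice by the deposited design and of 1 to 10 by the methods, drawn from 3 experiments. No label ties an array to an experiment, and arrays are named below by their label numbers. The cells were incubated before staining with the blocking antibody 2.4G2, which binds the Fc gamma receptor proteins II and III.

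The mean intensity of an array lay between 172 and 353 over the 25 colon arrays, with 16024 to 18608 probes above background on each. Mean intensity was lower on the *Mbd2*-/- cDC1 arrays (172 to 228) than on the WT cDC1 arrays (265 to 292). The markers of the sorted cells followed the sorts: 9 of 10 macrophage markers were higher in WT macrophages than in WT monocytes, 4 of 5 tested monocyte markers were lower, and 8 of 8 tested cDC1 markers were higher in WT cDC1s than in WT macrophages. Some lists of other cells were also higher in WT cDC1s than in WT macrophages, with 3 of 6 tested T cell markers, 2 of 3 NK cell markers and 2 of 4 mast cell markers higher, and 1 T cell and 1 mast cell marker lower. In that comparison 38.1% of all tested probes passed in either direction. The 6 T cell markers summed to 2761 and 642.4 on the WT and to 1138, 2222 and 401.4 on the *Mbd2*-/- cDC1 arrays. The *Mbd2* probe was above background on none of the 25 arrays and so gave no check of genotype. These are bulk samples, so fewer cells that carry a transcript and less of it in each cell cannot be told apart.

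Fc gamma receptors bind the constant part of IgG and tie antibody to the behaviour of myeloid cells, such as uptake of opsonised bacteria, cytokine release and antigen presentation. The activating receptors encoded by *Fcgr1*, *Fcgr3* and *Fcgr4* reach the cell surface and signal through the common gamma chain encoded by *Fcer1g*, which carries the tyrosine motif (ITAM) that recruits the kinase SYK. The inhibitory receptor encoded by *Fcgr2b* carries the opposing motif (ITIM), which recruits the phosphatase SHIP1, and the balance of the activating and inhibitory forms sets how strongly a cell answers an immune complex. FcRn, encoded by *Fcgrt*, is built differently. It pairs with beta-2-microglobulin like an MHC class I molecule, binds IgG in acidic endosomes and returns it to the cell surface.

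In RefSeq's annotation of mouse assembly GRCm38.p6, 4 of the 6 genes lay near each other on chromosome 1: *Fcgr2b* at 170960558 to 170976071, *Fcgr4* at 171018926 to 171029761, *Fcgr3* at 171051169 to 171065915 and *Fcer1g* at 171229572 to 171234349. *Fcgr4* was on the plus strand and the other 3 on the minus strand. *Fcgr1* lay on chromosome 3 at 96282909 to 96293969 and *Fcgrt* on chromosome 7 at 45092993 to 45103822, both on the minus strand.

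The 120 bases before the transcript start are printed for the activating receptors, the inhibitory receptor and *Fcgrt*, because the first 4 of these genes varied together over the cell types while *Fcgrt* did not. Sequences are from RefSeq (GRCm38.p6), 5′ to 3′ on the gene's strand. Capitals mark matches on either strand to 3 motifs bound by factors of myeloid cells, the PU box GAGGAA, the Ets and interferon composite GGAANNGAAA and the gamma-activated site TTCNNNGAA.
*Fcgr1*, chr3:96293970-96294089, minus strand: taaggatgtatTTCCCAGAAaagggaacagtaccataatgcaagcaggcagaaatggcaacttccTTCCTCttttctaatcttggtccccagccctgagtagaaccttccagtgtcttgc
*Fcgr3*, chr1:171059404-171059523, minus strand: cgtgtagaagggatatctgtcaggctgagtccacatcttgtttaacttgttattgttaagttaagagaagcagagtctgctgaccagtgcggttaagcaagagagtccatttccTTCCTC
*Fcgr4*, chr1:171018806-171018925, plus strand: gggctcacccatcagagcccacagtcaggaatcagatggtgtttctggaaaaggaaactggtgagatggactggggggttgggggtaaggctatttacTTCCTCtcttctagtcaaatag
*Fcgr2b*, chr1:170976072-170976191, minus strand: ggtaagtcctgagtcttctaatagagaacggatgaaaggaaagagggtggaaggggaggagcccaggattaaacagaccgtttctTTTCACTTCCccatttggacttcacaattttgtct
*Fcgrt*, chr7:45103823-45103942, minus strand: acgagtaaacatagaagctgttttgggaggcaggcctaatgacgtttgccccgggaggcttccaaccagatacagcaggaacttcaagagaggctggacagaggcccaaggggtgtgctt

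All 3 activating receptor genes held the PU box, read as TTCCTC on the gene's strand, at bases 55 to 50 before the start of *Fcgr1*, 6 to 1 before that of *Fcgr3* and 22 to 17 before that of *Fcgr4*. This motif was present in the 250 bases before the start in 23.3% of 32851 RefSeq windows. *Fcgr1* also held the gamma-activated site TTCCCAGAA at bases 109 to 101, a motif found in 7.02% of windows, and *Fcgr2b* held the composite as TTTCACTTCC at bases 35 to 26, found in 2.3% of windows. These matches did not overlap each other. None of the 3 motifs was found in the 250 bases before *Fcer1g* or *Fcgrt*. A match describes letters in this window and is not a measurement of binding. The window of *Fcgr3* lies inside the annotated span of its gene, at an inner transcript start. A second *Fcgr3* window, chr1:171059395-171059514, overlaps it and is not printed. There the PU box stands at bases 15 to 10 before the start. As MBD2 binds methylated CpG, the number of CpG dinucleotides in these 250 bases was also counted. *Fcgr1* and *Fcgr4* held 1, as few as in 18.8% of windows, and *Fcgr3* held 4 in its first window and 3 in its second. *Fcgr2b*, *Fcer1g* and *Fcgrt* held 5 each, and the median over all windows was 6. Methylation was not measured on these arrays.

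The activating receptors and the gamma chain differed little between colon monocytes and macrophages and were far lower in cDC1s. The exception was *Fcgr4*, which was called slightly higher in WT macrophages than in WT monocytes, as given below. *Fcgr1* encodes the high-affinity receptor CD64, which is commonly used to tell macrophages from dendritic cells. Its normalised log2 intensity was 9.35, 9.44, 9.36, 9.92 and 9.84 on the WT monocyte arrays (arrays 1 to 5) and 9.48, 9.83, 9.59, 9.75 and 9.61 on the WT macrophage arrays (arrays 11 to 15). The WT cDC1 arrays (23 and 26) read 4.52 and 5.05. Monocytes and macrophages overlapped, and both cDC1 arrays lay far below every other WT array. *Fcgr1* was above background on 1 of 2 WT and 2 of 3 *Mbd2*-/- cDC1 arrays, so its level there was at the limit of detection. In WT cells the log2 difference of *Fcgr1* between cDC1s and macrophages was -4.87 (SE 0.26, limma adjusted p = 8.21e-13). Its size depended on the background, at -3.76 with an offset of 50 and -3.14 without background correction.

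*Fcgr3*, the low-affinity activating receptor CD16, was 11.66 ± 0.15 (SD, n = 5) in WT monocytes, 11.62 ± 0.31 (n = 5) in WT macrophages and 6.90 ± 0.16 (n = 2) in WT cDC1s on the log2 scale, 26.4-fold lower in cDC1s than in macrophages (adjusted p = 4.22e-14). The log2 difference of *Fcgr3* was -4.06 without background correction. *Fcgr4*, an activating receptor of mouse myeloid cells that binds IgG2 subclasses, was 12.85 ± 0.25 in WT monocytes, 13.24 ± 0.19 in WT macrophages and 8.50 ± 0.02 in WT cDC1s, 26.7-fold lower in cDC1s than in macrophages (adjusted p = 1e-15). For both genes every cDC1 array of either genotype was below every monocyte and macrophage array. *Fcer1g*, the shared signalling chain, was 13.73 ± 0.15, 13.74 ± 0.11 and 10.70 ± 0.00 in the same 3 groups, 8.22-fold lower in cDC1s than in macrophages (adjusted p = 4.29e-15). *Fcer1g* was among the brightest probes of the monocyte and macrophage arrays, at 10520 to 17600 raw units where the brightest probe of any colon array read 12980 to 23919.

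**Figure D1:**
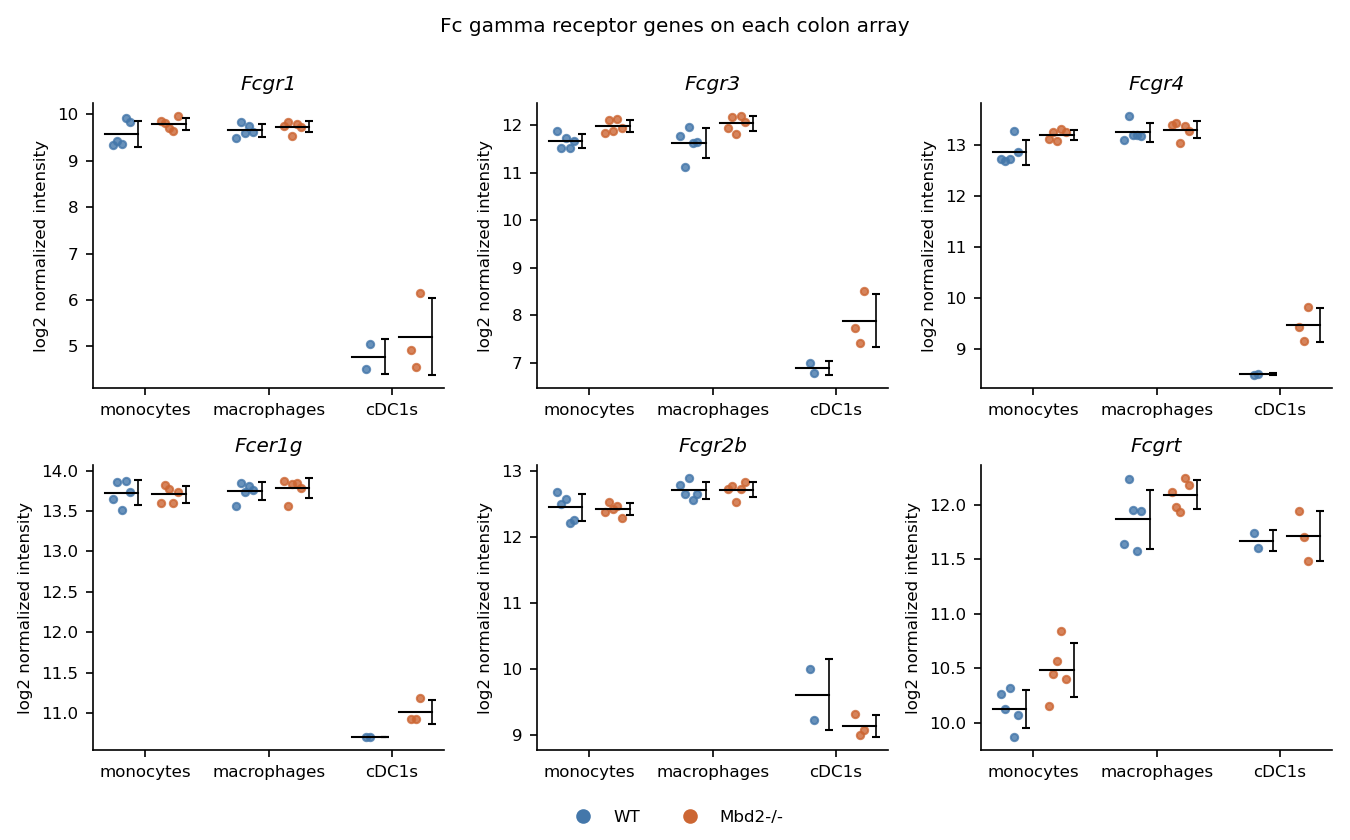
Normalised log2 intensity of the 6 Fc gamma receptor family genes (y axis) by cell type and genotype (x axis), with each point an array, the bar the group mean and the whisker the SD. The *Fcgr1* panel falls from between 9.35 and 9.97 in monocytes and macrophages to between 4.52 and 6.15 in cDC1s, and the *Fcgrt* panel is lowest in monocytes.

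The inhibitory receptor gene *Fcgr2b* followed the same order. Its brightest probe, which is listed for transcript variant 2, read 12.68, 12.50, 12.57, 12.21 and 12.25 in WT monocytes, 12.78, 12.65, 12.89, 12.56 and 12.64 in WT macrophages and 9.99 and 9.23 in WT cDC1s. Monocytes and macrophages overlapped, and their difference (log2 0.26) did not pass the test (limma adjusted p = 0.134). It was 8.55-fold lower in cDC1s than in macrophages of WT mice (adjusted p = 5.09e-13) and 12.0-fold lower in those of *Mbd2*-/- mice (adjusted p = 2.93e-15). In cDC1s against macrophages, 5 of 6 members passed the test in the lower direction in each genotype, where 18.6% of all tested probes did in WT and 21.4% in *Mbd2*-/- cells. The arrays of the same 5 members did not overlap in WT cells, where 42.7% of all probes did not. The median log2 difference over the 6 genes was -3.91 in WT and -3.70 in *Mbd2*-/- cells, and the medians over all tested probes were -0.04 and 0.00. Against monocytes the same 5 genes were lower and *Fcgrt* was higher in cDC1s of each genotype, where 36.2% of all probes passed in WT (16.8% lower and 19.4% higher) and 46.6% in *Mbd2*-/- cells (21.8% lower and 24.8% higher). Both comparisons use the same cDC1 arrays.

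*Fcgrt* had a different order, with the lowest level in monocytes. It read 10.27, 10.13, 10.32, 9.87 and 10.07 in WT monocytes, 11.64, 12.24, 11.95, 11.58 and 11.94 in WT macrophages and 11.74 and 11.60 in WT cDC1s. All 7 WT macrophage and cDC1 arrays lay above all 5 WT monocyte arrays, and cDC1s lay within the range of macrophages. It was the one member of 6 without overlap between WT macrophages and monocytes, where 16.5% of all probes did not overlap. The gene was 3.34-fold higher in macrophages than in monocytes of WT mice (log2 difference 1.74, SE 0.14, limma adjusted p = 2.86e-09) and 3.05-fold higher in those of *Mbd2*-/- mice (adjusted p = 7.16e-09). In cDC1s it was 2.91-fold and 2.34-fold higher than in monocytes of WT and *Mbd2*-/- mice (adjusted p = 2.83e-07 and 7.22e-07). The second of these did not pass with median scaling, where the log2 difference of *Fcgrt* was 0.57 (adjusted p = 0.111) while the median of all probes stood at -0.34, so that *Fcgrt* lay 0.91 above it. Between cDC1s and macrophages the log2 difference of *Fcgrt* was -0.20 in WT (adjusted p = 0.408) and -0.38 in *Mbd2*-/- cells (adjusted p = 0.0518). The latter was near the threshold and passed in 6 of 12 settings, including its second probe (-0.43, adjusted p = 0.0302), no background correction (-0.37, adjusted p = 0.0381) and median scaling (-1.06, adjusted p = 0.00324, which is -0.61 relative to the median of all probes). *Fcgrt* also passed there without macrophage array 16 (-0.42, adjusted p = 0.0434), macrophage array 20 (-0.41, adjusted p = 0.0485) or cDC1 array 27 (-0.49, adjusted p = 0.0286). The gene of its partner chain, *B2m*, differed by 0.11 between WT macrophages and monocytes on the log2 scale and did not pass.

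Between WT macrophages and monocytes, *Fcgrt* and *Fcgr4* were the 2 of 6 members that passed, both higher in macrophages, where 23.5% of all tested probes passed and 14.1% did so in the higher direction. *Fcgr4* was 1.31-fold higher (log2 difference 0.39, 95% confidence interval 0.12 to 0.66, adjusted p = 0.0316). Its WT monocyte arrays read 12.71, 12.68, 12.72, 13.28 and 12.85 and its WT macrophage arrays 13.08, 13.57, 13.20, 13.18 and 13.17, so that monocyte array 4 lay above 4 of the 5 macrophage arrays. The *Fcgr4* call was lost without monocyte array 1 (0.36, adjusted p = 0.0763), 2 (0.35, 0.0761), 3 (0.36, 0.0735) or 5 (0.39, 0.0529) or macrophage array 12 (0.31, 0.101). *Fcgr1*, *Fcgr3* and *Fcer1g* differed between WT macrophages and monocytes by -0.04 to 0.07. In *Mbd2*-/- cells only *Fcgrt* passed among the 6 members, where 27.4% of all probes did and 14.3% in that direction. No label names the chip that held an array. Sets of 6 consecutive columns of the deposited table were read as possible chips, because arrays of this type come 6 to a chip, and the sets are inferred from column position alone. Monocyte and macrophage arrays occupy different sets, so cell type and position in the table cannot be told apart for these 2 cell types. The same holds for WT cDC1s against WT macrophages and for *Mbd2*-/- cDC1s against *Mbd2*-/- monocytes, which share no set.

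The 5 probes of *Fcgr2b* did not show a single pattern. The second brightest probe, listed for transcript variant 1, behaved like the first, with a WT difference between macrophages and monocytes of 0.24 (limma adjusted p = 0.224) and a WT difference between cDC1s and macrophages of -3.13. In *Mbd2*-/- cells its difference between macrophages and monocytes was 0.38 and passed (adjusted p = 0.0431). The other pair of probes listed for variant 1, the third and the fourth by brightness, were dim and moved the other way. The third read 7.48, 7.24, 7.05, 6.95 and 7.25 in WT monocytes and 6.50, 5.36, 6.50, 6.53 and 6.65 in WT macrophages, with no overlap. It was lower in macrophages of both genotypes (WT -0.88, adjusted p = 0.00149, and *Mbd2*-/- -0.69, adjusted p = 0.0086), and the fourth was lower in WT macrophages (-1.08, adjusted p = 0.00101). In WT cells neither of these *Fcgr2b* probes passed between cDC1s and macrophages (0.44, adjusted p = 0.184, for the third). In *Mbd2*-/- cells both were lower in cDC1s (-0.73, adjusted p = 0.00901, and -0.88, adjusted p = 0.00721). The genotype difference of the third in cDC1s minus that in macrophages was -1.17 on the log2 scale (adjusted p = 0.0392), and for the fourth it was -1.13 (adjusted p = 0.0796). The fifth probe was above background on 1 of 25 arrays and was not tested. The sequence each probe targets was not checked here, and the reason that the probes differ was not tested.

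**Figure D2:**
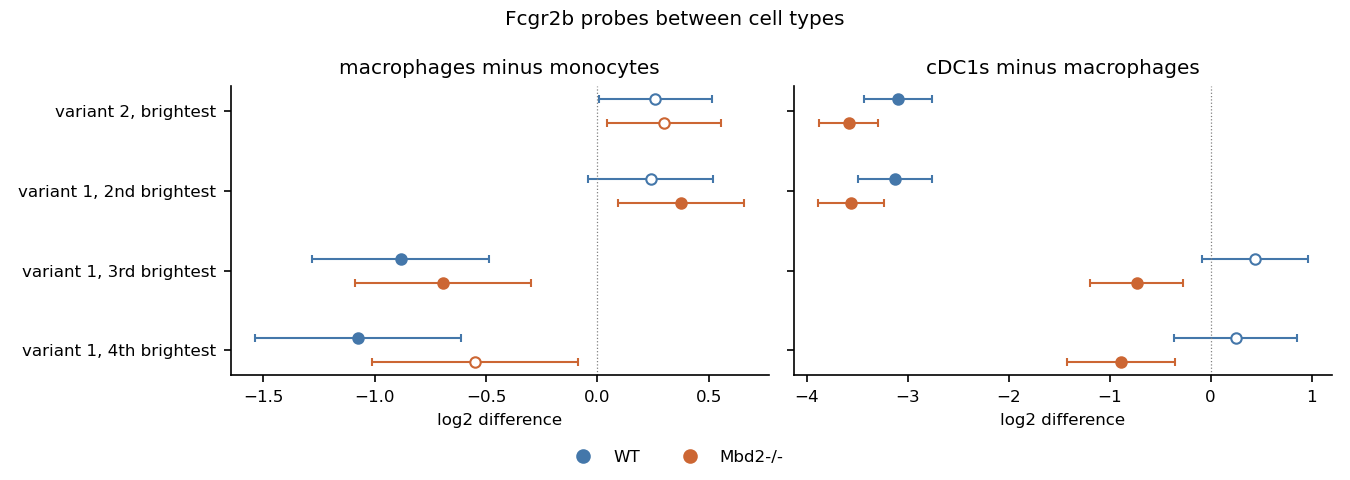
Log2 difference between macrophages and monocytes (left) and between cDC1s and macrophages (right) with its 95% confidence interval (x axes) for the 4 tested probes of *Fcgr2b* in each genotype, with filled points for an adjusted p under 0.05. Between WT macrophages and monocytes the brightest probe stands at 0.26 and the third at -0.88.

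Deletion of *Mbd2* moved no member past the test in monocytes or in macrophages, where 1.8% and 5.67% of all tested probes passed. In monocytes the largest differences were those of *Fcgrt* (log2 0.35, 95% confidence interval 0.07 to 0.64, limma adjusted p = 0.217) and *Fcgr4* (0.35, 0.08 to 0.62, adjusted p = 0.201), followed by *Fcgr3* (0.32, -0.02 to 0.66, adjusted p = 0.388). *Fcgr1* differed by 0.22, *Fcer1g* by -0.02 and *Fcgr2b* by -0.03. At an unadjusted p under 0.05 the first 2 of these 6 genes passed, as did 13.8% of all probes, and no member's WT and *Mbd2*-/- monocyte arrays were free of overlap (4.85% of all probes were). The median over the 6 genes was 0.27, against -0.02 over all probes.

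In macrophages the widest difference was that of *Fcgr3*, at 0.41 (0.08 to 0.75, adjusted p = 0.126). Its WT macrophage arrays read 11.76, 11.12, 11.95, 11.62 and 11.65 and its *Mbd2*-/- arrays (16 to 20) 11.82, 12.19, 12.06, 11.93 and 12.17. The groups overlapped, since 2 *Mbd2*-/- arrays lay below the highest WT array, and WT array 12 was the lowest of the 10. *Fcgrt* differed by 0.22 (adjusted p = 0.328) and the other 4 genes by 0.01 to 0.08. *Fcgr3* alone passed at an unadjusted p under 0.05, as 23.7% of all probes did, and no member was free of overlap, where 5.29% of probes were. Monocyte and macrophage arrays of both genotypes stood in each of their inferred sets of 6 columns. Within these sets, the difference of *Fcgr3* was 0.27 and 0.39 in monocytes and 0.44 and 0.39 in macrophages. That of *Fcgr4* in monocytes was 0.48 and 0.14, and that of *Fcgrt* in monocytes was 0.07 and 0.64. Neutrophils also transcribe *Fcgr3*, *Fcgr4* and *Fcer1g*, and the gate left out Ly6G+ cells. The summed linear level of 8 neutrophil markers ran from 3013 to 8614 on the WT and from 7052 to 9063 on the *Mbd2*-/- monocyte arrays, and from 1171 to 2409 and 1914 to 5873 on those of macrophages, and its part in the differences was not tested.

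**Figure D3:**
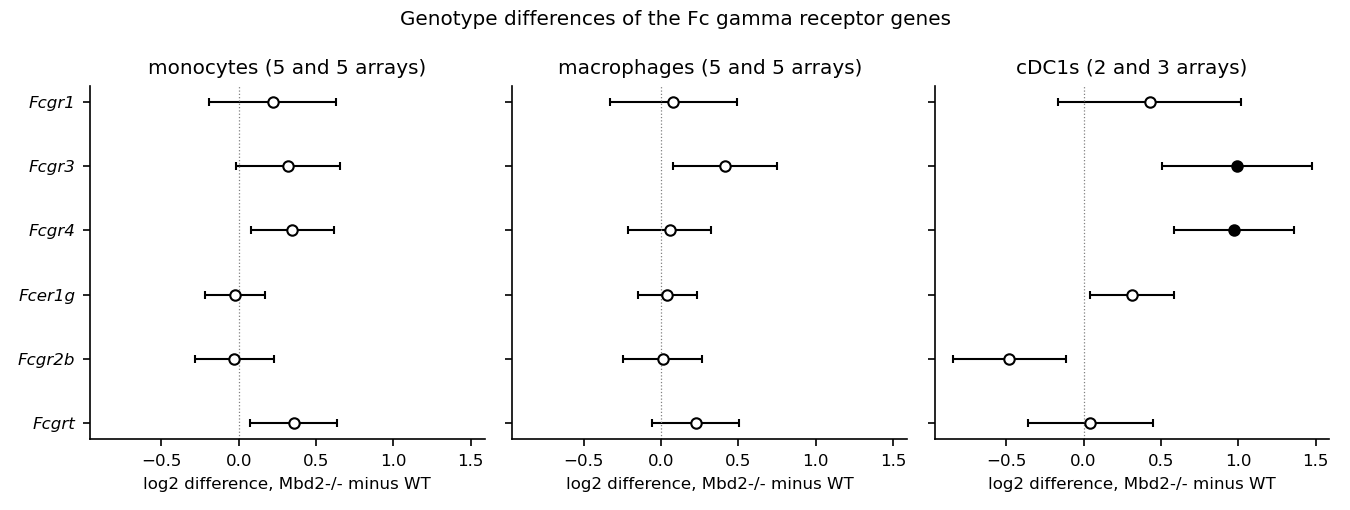
Log2 difference between *Mbd2*-/- and WT cells (x axis) with its 95% confidence interval for each of the 6 genes in the 3 cell types, with filled points for an adjusted p under 0.05. The filled points are *Fcgr3* and *Fcgr4* in cDC1s, at 0.99 and 0.97.

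In cDC1s, where every member but *Fcgrt* was lower than in the other cell types, 2 activating receptors were higher in *Mbd2*-/- cells. *Fcgr4* read 8.49 and 8.52 on the WT arrays and 9.44, 9.16 and 9.83 on the *Mbd2*-/- arrays (27, 28 and 30), and all 3 lay above both WT arrays. It was 1.96-fold higher (log2 0.97, SE 0.19, 95% confidence interval 0.59 to 1.36, limma adjusted p = 0.00526). *Fcgr3* read 7.01 and 6.79 against 7.74, 7.42 and 8.51, again without overlap, and was 1.99-fold higher (0.99, SE 0.23, 0.51 to 1.47, adjusted p = 0.0152). *Mbd2*-/- array 30 was the highest for both genes. These were the 2 of 6 members that passed, where 6.62% of all tested probes did and 3.39% passed in the higher direction. *Fcer1g* also did not overlap, at 10.70 and 10.70 against 10.93, 10.92 and 11.19, but its difference of 0.31 did not pass (adjusted p = 0.146). With 2 arrays against 3, 31.8% of all probes did not overlap. At an unadjusted p under 0.05, 4 of the 6 members passed, as 24.2% of all probes did. *Fcgr1* differed by 0.43 (adjusted p = 0.378) and *Fcgrt* by 0.04 (adjusted p = 0.922).

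*Fcgr2b* was the one member with a lower mean in *Mbd2*-/- cDC1s, at 9.32, 8.99 and 9.08 against 9.99 and 9.23 in WT. The difference of -0.48 (95% confidence interval -0.85 to -0.11) did not pass (adjusted p = 0.0981), and it rested on which WT array was used. Without WT array 26 the difference of *Fcgr2b* was -0.86 and passed (adjusted p = 0.00305), and without WT array 23 it was -0.10. The difference of *Fcgr3* did not pass without WT array 23 (1.10, adjusted p = 0.0507), WT array 26 (0.88, adjusted p = 0.0597) or *Mbd2*-/- array 30 (0.68, adjusted p = 0.0673). *Fcgr4* passed with any one of the 5 cDC1 arrays left out, at 0.80 to 1.13.

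The size of the cDC1 differences depended on how the arrays were put on a common scale. The raw intensities overlapped between genotypes, at 508.8 and 450.3 in WT against 597.9, 318.8 and 537.2 in *Mbd2*-/- cDC1s for *Fcgr4*, and at 244.7 and 194.3 against 233.7, 146.9 and 251.9 for *Fcgr3*, on arrays whose mean intensity was itself lower in *Mbd2*-/- cells. With median scaling in place of quantile normalisation, *Fcgr4* differed by 0.36 (adjusted p = 0.400) and *Fcgr3* by 0.32 (adjusted p = 0.518), while the median of all probes moved to -0.37. Relative to that median they stood at 0.73 and 0.69, *Fcer1g* at 0.22, *Fcgrt* at 0.04 and *Fcgr2b* at -0.67. *Fcgr2b* itself was then at -1.04 and passed (adjusted p = 0.0497). With the cDC1 arrays normalised and fitted alone, *Fcgr4* was 0.94 (adjusted p = 0.349) and *Fcgr3* 0.93 (adjusted p = 0.353). The WT and *Mbd2*-/- cDC1 arrays share no inferred set of 6 columns, so genotype and position in the table cannot be told apart in cDC1s.

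The summed markers of other myeloid cells were also higher in *Mbd2*-/- cDC1s. The macrophage and the cDC1 marker lists ranked the *Mbd2*-/- arrays as *Fcgr3* and *Fcgr4* did, and the monocyte and neutrophil lists did not. An order of 3 arrays is easily shared by chance. The summed linear level of 10 macrophage markers was 2636 and 2756 on the WT arrays and 4117, 3039 and 5896 on *Mbd2*-/- arrays 27, 28 and 30, against 45820 to 54180 in the macrophages themselves. All 10 had a positive difference, and each was above background in both groups. Of them 1 passed (*C1qb*, 0.92, adjusted p = 0.0152), where 6.62% of all tested probes did and 3.39% in the higher direction. Of 6 monocyte markers, 3 (*Ccr2*, *Vcan* and *Itgam*) were not above background on any cDC1 array, and the list summed to 6859 and 6655 in WT and to 7712, 9825 and 9409 in *Mbd2*-/- cDC1s. The same list ran from 12970 to 18890 on the WT monocyte and from 3929 to 6567 on the WT macrophage arrays. The 8 neutrophil markers summed to 618.9 and 685.9 in WT and to 2618, 1131 and 1093 in *Mbd2*-/- cDC1s, with *Cxcr2* and *Ngp* above background on none. The 9 cDC1 markers summed to 13930 and 14980 against 14430, 13140 and 14630. The part of these cells in the *Fcgr3* and *Fcgr4* differences was not tested.

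**Figure D4:**
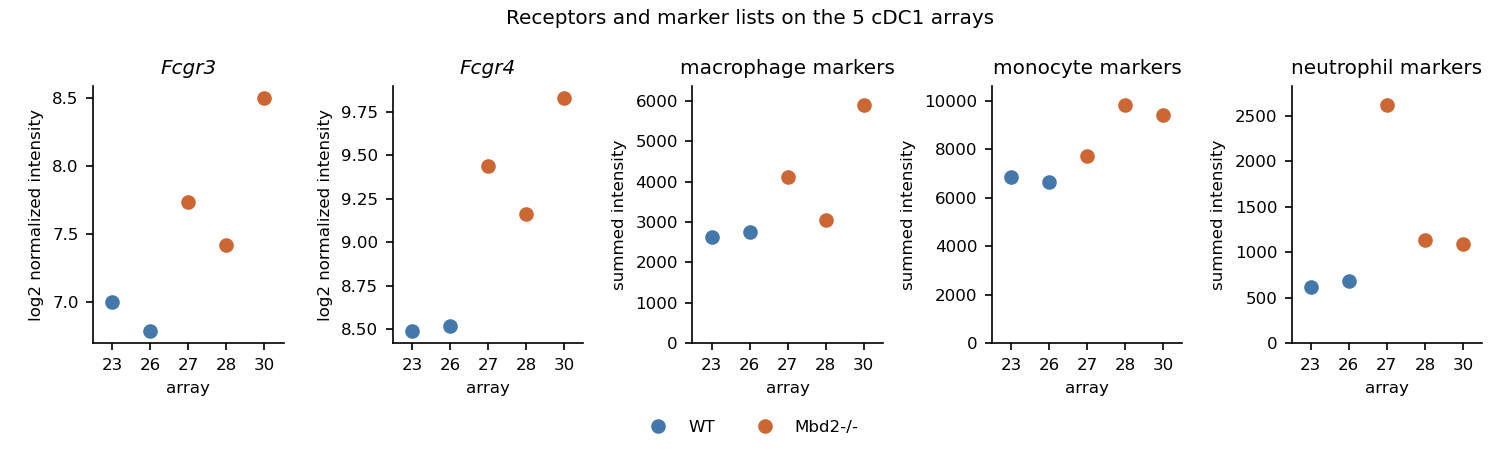
*Fcgr3* and *Fcgr4* (normalised log2 intensity) and the summed linear intensity of the macrophage, monocyte and neutrophil marker lists (y axes) on each of the 5 cDC1 arrays (x axis, by label number), with each point an array. *Fcgr3*, *Fcgr4* and the macrophage markers all read highest on *Mbd2*-/- array 30 (8.51, 9.83 and 5896), and both WT arrays are the lowest in each panel.

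The genotype difference of *Fcgr4* was larger in cDC1s than in macrophages (difference of the differences 0.92, 95% confidence interval 0.46 to 1.38, limma adjusted p = 0.0219), the one member of 6 to pass, where 6.58% of all probes did and 3.11% in the higher direction. These cell types read *Fcgr4* at far different levels, at 318.8 to 597.9 raw units in cDC1s and 6936 to 12000 in macrophages. Whether the level changed the size of a difference was not tested. The call on *Fcgr4* against macrophages did not hold without WT cDC1 array 23 (0.91, adjusted p = 0.104) or *Mbd2*-/- cDC1 array 30 (0.74, adjusted p = 0.0611). It passed in 6 of 12 settings, and was lost with median scaling (0.29, adjusted p = 0.741, which is 0.50 relative to the median of all probes), cyclic loess (0.63, adjusted p = 0.0961), array weights (0.88, adjusted p = 0.0719) and the groups fitted alone (0.89, adjusted p = 0.0951). Against monocytes the same quantity was 0.63 for *Fcgr4* (adjusted p = 0.162) and 0.67 for *Fcgr3* (adjusted p = 0.240). No member passed there, where 0.883% of all probes did, and 4 of 6 passed at an unadjusted p under 0.05, as 16.4% of all probes did. Between macrophages and monocytes no member passed, where 0.0266% of probes did, and none passed at an unadjusted p under 0.05, where 6.99% did. Without WT cDC1 array 26, *Fcgr2b* also passed against macrophages (-0.87, adjusted p = 0.00729) and against monocytes (-0.83, adjusted p = 0.0153).

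The activating genes were also set against *Fcgr2b* within each array, as the difference of the 2 log2 values. The value itself compares different probes and is not a ratio of transcript levels, but its shift between genotypes can be read. This was done as a description, after the values above were known, and carries no test. For *Fcgr3* the WT monocyte arrays ran from -0.99 to -0.60 and the *Mbd2*-/- arrays from -0.54 to -0.34, with -1.52 to -0.94 and -0.80 to -0.53 in macrophages, and -2.98 and -2.44 against -1.58 to -0.57 in cDC1s. The *Mbd2*-/- arrays were thus above the WT arrays without overlap in each of the 3 cell types, with mean shifts of 0.35, 0.40 and 1.47. Taken against *Fcgr2b* in the same way, 2.59%, 3.24% and 30.9% of all probes did not overlap in monocytes, macrophages and cDC1s. Over 6 ways of processing the arrays, the groups stayed apart for *Fcgr3* in 6 of 6 in macrophages and cDC1s and in 5 of 6 in monocytes. The exception used the second brightest *Fcgr2b* probe, with 0.48 to 0.90 in WT and 0.86 to 1.25 in *Mbd2*-/- monocytes. For *Fcgr4* the groups were apart in cDC1s (-1.50 and -0.71 against 0.12 to 0.75) and overlapped in monocytes and macrophages, and for *Fcgr1* they overlapped in all 3 cell types.

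B cells also transcribe *Fcgr2b*, and markers of B and plasma cells were mostly lower in *Mbd2*-/- monocytes and macrophages. The genotype difference of *Fcgr2b* itself was -0.03 in monocytes and 0.01 in macrophages on the log2 scale. All 6 tested markers had a negative genotype difference in monocytes, and 2 passed, *Cd79b* (log2 -1.07, limma adjusted p = 0.00925) and *Tnfrsf17* (-0.75, adjusted p = 0.0258). Of all tested probes 0.945% passed there in the lower direction. In macrophages 6 of 7 markers were negative and *Cd79b* passed (-0.76, adjusted p = 0.0421), where 2.57% of all tested probes passed in the lower direction. The summed linear level of the 8 markers ran from 1067 to 1504 on the WT and from 622.3 to 1007 on the *Mbd2*-/- monocyte arrays, and from 1106 to 1905 and 708.9 to 1585 on those of macrophages. In cDC1s it was 374.9 and 404.1 in WT and 516.3, 644.3 and 431.8 in *Mbd2*-/- cells. *Pax5* was above background on no colon array and *Ms4a1* on no monocyte array. The part of these cells in the values set against *Fcgr2b* was not tested.

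**Figure D5:**
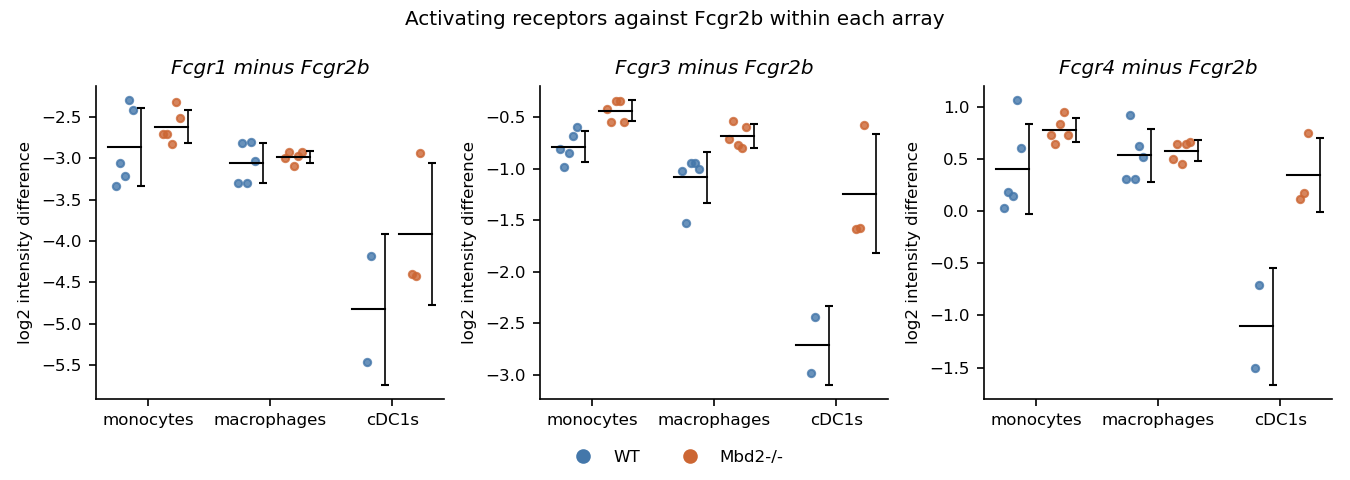
Log2 value of each activating receptor gene minus that of *Fcgr2b* on the same array (y axis), by cell type and genotype (x axis), with each point an array, the bar the mean and the whisker the SD. For *Fcgr3* the *Mbd2*-/- arrays lie above the WT arrays in every cell type, by a mean of 0.35, 0.40 and 1.47.

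Genes that act with the receptors were followed on lists. Of 19 genes of ITAM signalling, 18 were on the array and 17 were tested between WT macrophages and monocytes. There 4 of 17 passed, where 23.5% of all probes did, and 3 of them were lower in macrophages, among them *Syk*, the kinase that binds the phosphorylated gamma chain (log2 -0.80, limma adjusted p = 0.00649), and *Fgr*, a Src family kinase (-0.77, adjusted p = 0.004). The adaptor *Lat2* was higher (0.60, adjusted p = 0.000113), and did not pass with median scaling (0.38, adjusted p = 0.248). The median over the list was -0.17, against 0.00 over all probes. In WT cDC1s against macrophages 7 of 17 were lower and none higher, where 18.6% of all probes were lower, with a median of -0.40 against -0.04 over all probes, including the adaptors *Lcp2* (-1.86) and *Sh3bp2* (-2.13). Of 11 other receptors, adaptors and related genes that use or resemble the gamma chain, 10 were on the array and 8 were tested, and 6 of them were lower in WT cDC1s than in macrophages beside the same 18.6%, with a median of -1.25. Among these were *Clec4d* (-5.15), *Clec4e* (-4.42) and *Clec4n* (-4.12), which encode C-type lectins that sense fungi and mycobacteria. Between WT macrophages and monocytes 4 of 8 passed, beside the 23.5% of all probes given above. The largest differences were those of *Clec4e* (-1.56, adjusted p = 8.91e-06), *Pira1* (-0.95, adjusted p = 0.044) and *Clec4d* (-0.82, adjusted p = 0.000191). *Pira1* passed with only 3 of the 10 arrays left out in turn, at -1.17 to -0.74 and adjusted p up to 0.137.

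Of 11 genes of ITIM signalling and its brakes, 10 were tested in WT cDC1s against macrophages. *Dok2*, *Dok3*, *Lilrb4* and *Ptpn6*, which encodes the phosphatase SHP-1, were lower there (-4.53, -2.91, -2.94 and -1.09), and *Ptpn11* and *Dok1* were higher (0.53 and 1.09), so that 6 of 10 passed where 38.1% of all probes did. Between WT macrophages and monocytes 3 of 9 passed, where 23.5% of all tested probes did. *Lilrb4*, an inhibitory receptor, differed by -0.83 (limma adjusted p = 0.0115), the adaptor *Dok3* by -0.49 (adjusted p = 0.0197) and *Inpp5d*, which encodes SHIP1, by 0.40 (adjusted p = 0.0434). *Lilrb4* passed with any one of the 10 arrays left out, while *Dok3* did not without monocyte array 1 (-0.44, adjusted p = 0.0552) or macrophage array 11 (-0.43, adjusted p = 0.0553). *Inpp5d* passed with only 4 of the 10 left out in turn, at 0.26 to 0.46 and adjusted p up to 0.155. The median over the ITIM list was -0.13 in WT cDC1s against macrophages, and the median over all probes was -0.04.

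Among 12 other immunoglobulin receptors and related genes, 11 were on the array and 6 were tested between WT macrophages and monocytes, of which 3 were higher in macrophages where 14.1% of all probes were. They were the Fc receptor-like gene *Fcrls* (log2 3.23, limma adjusted p = 2.86e-09), the IgM receptor gene *Fcmr* (1.09, adjusted p = 0.0324) and the IgE receptor gene *Fcer2a* (1.04, adjusted p = 0.000356). Of 6 tested B and plasma cell markers, 2 were also higher there, none passed in the lower direction and 3 had a negative difference. The part of B cells in these values was not tested. *Fcmr* did not pass without monocyte array 2 (0.95, adjusted p = 0.0845) or 3 (0.91, adjusted p = 0.0926) or macrophage array 11 (0.93, adjusted p = 0.0896). This was also the list with genes that passed between genotypes in monocytes and macrophages. *Fcrls* ran from 8.19 to 8.75 on the WT and from 5.28 to 7.19 on the *Mbd2*-/- monocyte arrays, and from 11.21 to 12.09 and 9.61 to 10.37 on those of macrophages, without overlap in either. Its difference was -2.14 in monocytes (SE 0.25, adjusted p = 3.68e-05) and -1.55 in macrophages (adjusted p = 0.00132), and it passed with any one array of the pair of groups left out. In cDC1s *Fcrls* differed by -0.60 and did not pass (adjusted p = 0.322).

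*Fcmr*, which B cells also transcribe, was lower in *Mbd2*-/- monocytes (-1.49, limma adjusted p = 0.0349) and differed by -1.02 in macrophages (adjusted p = 0.0946). The monocyte call held with only 3 of the 10 arrays left out in turn, at -1.76 to -1.35 and adjusted p up to 0.107, and was lost without background correction (-0.93, adjusted p = 0.068). The B and plasma cell markers given above were lower in the same cells, and their part was not tested. In all, 2 of 6 tested genes of this list were lower in *Mbd2*-/- monocytes, where 0.945% of all probes were. In macrophages 1 of 7 was lower, where 2.57% of all probes were, and none of 7 passed in cDC1s. From these same arrays the paper names *Fcrls*, spelled *Fclrs* there, among genes altered in *Mbd2*-/- macrophages. The list was made with earlier results known, so its counts are a description and not independent of that report. The list medians were -0.67, -0.58 and -0.18, and the medians over all probes were -0.02, -0.07 and 0.03.

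Across genotypes few genes of the other lists passed. In the ITAM list none of 17 tested genes passed in monocytes or macrophages, with medians of -0.03 and -0.08. In cDC1s *Vav3* was lower in *Mbd2*-/- cells (-1.04, limma adjusted p = 0.000517) and the adaptor *Grb2* was higher (0.82, adjusted p = 0.022), so that 2 of 16 tested passed where 6.62% of all probes did. *Vav3* passed with any one cDC1 array left out and in 10 of 11 settings, with an adjusted p of up to 0.349. *Grb2* did not pass without array 23 (0.58, adjusted p = 0.259), 28 (0.76, adjusted p = 0.0671) or 30 (0.72, adjusted p = 0.0862). It passed in 5 of 11 settings, and not with median scaling (0.38) or cyclic loess (0.53). *Clec4d* was the one gamma chain partner of 9 tested that passed in cDC1s, higher in *Mbd2*-/- cells (0.90, adjusted p = 0.0142). It passed in 5 of 11 settings, and did not pass without array 23 (0.80, adjusted p = 0.117) or with median scaling (0.25). No gene of the ITIM list passed in any cell type, with medians of -0.12, -0.11 and 0.09 in monocytes, macrophages and cDC1s, and *B2m* did not pass in any.

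Over the 25 colon arrays the log2 values of *Fcgr1*, *Fcgr2b*, *Fcgr3*, *Fcgr4* and *Fcer1g* moved together, with Pearson's r of 0.96 to 0.99 for each pair, while *Fcgrt* stood at -0.17 to -0.27 against them. The 25 points fall into 3 cell types and share their libraries, so that they are not independent and r is given as a description, without a p. Among 14404 genes, those whose pattern was most like each member were named by r. For *Fcer1g* these were *Clec4a3* (0.992), *Slc11a1* (0.992) and *Cebpb* (0.991), for *Fcgr1* they were *Plaur* (0.992), *Ms4a6d* (0.990) and *Fcer1g* (0.990), and for *Fcgr4* they were *Tlr7* (0.992), *Lst1* (0.990) and *Slc11a1* (0.989). *Fcgr3* was closest to *Slc11a1* (0.986), *Fcgr4* (0.985) and *Fcgr1* (0.984), and *Fcgr2b* to *Apobec1* (0.987), *OTTMUSG00000000971* (0.983) and *4732429D16Rik* (0.983). *Fcgrt* was closest to *Rtn1* (0.963), *Nacc2* (0.954) and *Gsg1* (0.952), none of which was among the nearest genes of another member.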

How the data were processed

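The authors deposited intensities, the mean bead brightness of each probe exported without normalisation or background subtraction, and with each of them a detection p-value set against that array's negative controls. The deposited table also holds 3 signal columns of no sample of the series, which were not used. The submitters' processing notes name lumi and limma without versions. Here the intensities were background corrected by normexp with 936 negative control probes and an offset of 16, quantile normalised over the 25 colon arrays and taken to log2 (R 4.3.3, limma 3.58.1, the data.table package, version 1.17.8). The 6 groups entered a single limma model, with two-sided tests adjusted by the Benjamini-Hochberg method over all tested probes of a comparison. A probe was tested where the number of arrays with a detection p-value under 0.05 reached the size of the smaller group, and passed at an adjusted p under 0.05. No label states that arrays are separate animals beyond their replicate numbers, so p-values measure the spread between these samples. The procedure was tested on simulated data.

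The members, the gene lists and the tests were chosen with earlier results of these data known. All 6 members are named, and of the lists of related genes those that passed between genotypes and up to 3 with the largest change among those that passed between WT macrophages and monocytes. Genes and markers named for other comparisons were chosen after their values were seen. Likeness was searched over genes above background on at least 5 arrays, with 3 genes kept for each member. The alternatives covered the background (none, or an offset of 50), the scaling (by the median, or cyclic loess), the filter (none, or a detection p-value under 0.01), other call thresholds, groups fitted alone, array weights, any probe of a gene, inferred column sets as a block and each array left out. The alternatives for the activating genes set against *Fcgr2b* were chosen after seeing the data. Promoters and gene positions were read from RefSeq tables of GRCm38.p6, in which all 6 members matched by symbol. The build behind the array's annotation is not given in the sources used here. The labels and the methods differ in the RNA kit and integrity limit they name. The number of arrays limits the precision.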

Additional observations from a re-analysis of the deposited data

Results flagged for a closer look

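Dixon's criterion was applied to 24 sets of values, each of 1 gene in 1 group of 5 arrays. In 3 of them 1 array stood apart from the rest. Chance alone meets the criterion in about 1 of 20 independent sets, and these sets share arrays. *Fcgr4* was high on WT monocyte array 4 (13.28) and on WT macrophage array 12 (13.57). *Fcer1g* was low on *Mbd2*-/- macrophage array 20 (13.56). The genotype difference of *Fcgr4* was larger in cDC1s than in macrophages by 0.92 on the log2 scale in the test of the difference itself. That value ran from 0.29 to 0.92 over the settings and passed in 6 of 12 of them, and it did not pass without cDC1 array 23 or 30.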

How the results depend on the processing

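Of the counts of members that passed, those of the genotype comparisons in monocytes and macrophages were 0 under every alternative run. The count in cDC1s (2) was 1 with median scaling, at an adjusted p under 0.01 and with array weights, 0 with a minimum log2 fold change of 1 and with the groups fitted alone, and 1 to 2 with single arrays left out. With median scaling the 1 that passed was *Fcgr2b*, in the lower direction, and neither *Fcgr3* nor *Fcgr4* passed. The count for macrophages against monocytes in WT (2) was 1 with median scaling, no filter, an adjusted p under 0.01, a minimum log2 fold change of 1 and groups fitted alone, and 1 to 2 with single arrays left out. In *Mbd2*-/- cells (1) it was 2 without background correction, with groups fitted alone and with any probe counted. The count for the genotype difference in cDC1s against macrophages (1) was 0 with median scaling, cyclic loess, an adjusted p under 0.01, a minimum log2 fold change of 1, groups fitted alone and array weights, 2 with any probe, and 0 to 2 with single arrays left out. Against monocytes (0) it was 0 to 1, and for cDC1s against macrophages in *Mbd2*-/- cells (5) it was 5 to 6. The cause was not tested.

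Signs turned only for differences of at most 0.43 that had not passed. With median scaling, *Fcgr1* stood at -0.11 in monocytes and -0.022 in macrophages between genotypes and at -0.11 in WT macrophages against monocytes, *Fcgr2b* at -0.047 in macrophages, and *Fcer1g* at -0.15 and *Fcgrt* at -0.33 in cDC1s between genotypes. *Fcer1g* stood at -0.10 in WT macrophages against monocytes. The difference of the genotype effects was 0.091 for *Fcgr1* and 0.11 for *Fcgrt* between macrophages and monocytes, and -0.19 for *Fcer1g* between cDC1s and macrophages. Median scaling moved the median of all probes to -0.26, -0.067 and -0.37 in the genotype comparisons of monocytes, macrophages and cDC1s and to -0.095 in WT macrophages against monocytes. Of the values that turned with median scaling, only *Fcgr1* (-0.011) and *Fcer1g* (-0.0048) in WT macrophages against monocytes were still turned relative to it. Without background correction that of *Fcgr1* between cDC1s and monocytes was -0.033. Between genotypes in monocytes, cyclic loess gave 0.049 for *Fcgr2b* and 0.067 for *Fcer1g*, the column block gave 0.013 for *Fcgr2b*, and counting any probe gave 0.17. By its dimmer probes *Fcgr2b* was -1.08 in WT and -0.69 in *Mbd2*-/- macrophages against monocytes.

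With single arrays left out, the genotype difference ran from -0.078 to 0.014 (*Fcer1g*) and -0.086 to 0.032 (*Fcgr2b*) in monocytes, -0.0033 to 0.095 (*Fcer1g*) and -0.026 to 0.058 (*Fcgr2b*) in macrophages, and -0.044 to 0.76 (*Fcgr1*) and -0.072 to 0.15 (*Fcgrt*) in cDC1s. In WT macrophages against monocytes it ran from -0.040 to 0.059 for *Fcer1g* and -0.12 to 0.086 for *Fcgr3*. The difference of effects ran from -0.12 to 0.68 and -0.26 to 0.54 for *Fcgr1* in cDC1s against macrophages and monocytes, and from -0.021 to 0.096 for *Fcgr2b* and -0.033 to 0.17 for *Fcgr3* between macrophages and monocytes. No pairing was used in the main fit, because no label states pairs and the groups compared share no replicate number. Monocyte and macrophage arrays whose numbers differ by 10, which no label states to be pairs, were also entered as a random block (correlation 0.0558), and no call on a member changed.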

Other observations

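The labels also give 1 WT and 1 *Mbd2*-/- array of splenic CD4 T cells, taken 6 weeks after transfer, which entered no comparison. With no replicate, the raw intensities are given as values. *Fcgr1* was not above background on either array. The raw intensity of *Fcer1g* was 510.7 on the WT and 455.2 on the *Mbd2*-/- array, that of *Fcgr4* 314.2 and 267.1, that of *Fcgr3* 157.9 and 132.0, that of *Fcgr2b* 131.7 and 127.0, and that of *Fcgrt* 277.1 and 281.9, each above background on both arrays.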
